A study of Rattus norvegicus with 6 samples.

Results

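The UDP-glucuronosyltransferases of the UGT1A family and the enzymes that make their cosubstrate, UDP-glucuronate, were followed in rat renal cortex after chlorothalonil. Members were the genes Ugt1a1, Ugt1a2, Ugt1a6 and Ugt1a9 for the transferases, and Ugp2 and Ugdh for the supply of UDP-glucuronate. Every probe other than a control whose transcript accession belongs to one of these 6 genes was taken, which gave 11 of 61537 probes for 6 of the 15645 genes that probes could be matched to. Of these, 7 were UGT1A probes and 4 belonged to Ugp2 and Ugdh. All 11 exceeded background clearly on each of the 6 arrays and entered the test, which covered 39862 probes in all. Taking the probes of these genes used no measured value, but the genes themselves were chosen with earlier results of these data known.

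In the study, 3 male Sprague-Dawley rats received the fungicide chlorothalonil for 4 weeks at a daily 500 mg/kg, and another 3 received corn oil, the vehicle, over the same time. The animals were 5 weeks old when bought and ate a basal diet. Total RNA of the renal cortex, the outer kidney with the glomeruli and most proximal tubules, was read on 1-colour Agilent arrays, 1 per animal. The labels of chlorothalonil replicate 3 conflict: the source name states ethylenediamine dihydrochloride, whereas the other labels state chlorothalonil. It stayed with the treated arrays, and results are also given without it. All chlorothalonil arrays lay on 1 slide and all corn oil arrays on another, scanned on different days, so an effect of treatment and one of the slide cannot be told apart below.

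UGT1A enzymes sit in the membrane of the endoplasmic reticulum and move glucuronic acid from UDP-glucuronate onto bilirubin, phenols and drugs, which makes these compounds soluble enough for export into urine or bile. The family comes from one locus, where each enzyme has a first exon of its own that is spliced to common exons. The cosubstrate is made in the cytosol: UGP2 joins glucose 1-phosphate to UTP, and UGDH oxidises the resulting UDP-glucose to UDP-glucuronate. The proximal tubule is the main site of glucuronidation in the kidney. In the rat annotation used for gene names, 8 protein-coding Ugt1a genes on chromosome 9 share 1 annotated end, and 4 of them are members. The other 4 have no probe by accession. Which exon each UGT1A probe reads was not analysed here, so how much of a signal belongs to the gene named, rather than to a relative with the same common exons, is uncertain.

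Promoters are shown because most members were higher together after chlorothalonil. They are RefSeq sequences of build GRCr8, from 250 bases before to 50 after the annotated start, and all 6 members matched. Capitals mark 3 motifs searched on both strands: the core of the antioxidant response element bound by NRF2 (TGACNNNGC), the core bound by the aryl hydrocarbon receptor (GCGTG) and the core site of the tubular and hepatic factor HNF1 (GTTAAT).
Ugt1a6, chr9:96194768-96195067, plus strand: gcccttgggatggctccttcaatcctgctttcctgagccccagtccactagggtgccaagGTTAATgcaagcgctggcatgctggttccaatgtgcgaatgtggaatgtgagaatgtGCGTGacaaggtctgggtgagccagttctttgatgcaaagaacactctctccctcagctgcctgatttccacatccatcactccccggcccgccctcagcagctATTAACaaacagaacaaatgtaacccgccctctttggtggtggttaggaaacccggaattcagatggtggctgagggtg
Ugt1a2, chr9:96238769-96239068, plus strand: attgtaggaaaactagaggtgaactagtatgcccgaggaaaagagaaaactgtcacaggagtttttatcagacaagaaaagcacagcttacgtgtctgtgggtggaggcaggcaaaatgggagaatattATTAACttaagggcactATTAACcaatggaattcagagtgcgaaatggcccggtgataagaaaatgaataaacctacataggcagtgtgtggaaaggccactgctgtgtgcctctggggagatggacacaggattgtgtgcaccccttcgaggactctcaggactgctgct
Ugt1a1, chr9:96248893-96249192, plus strand: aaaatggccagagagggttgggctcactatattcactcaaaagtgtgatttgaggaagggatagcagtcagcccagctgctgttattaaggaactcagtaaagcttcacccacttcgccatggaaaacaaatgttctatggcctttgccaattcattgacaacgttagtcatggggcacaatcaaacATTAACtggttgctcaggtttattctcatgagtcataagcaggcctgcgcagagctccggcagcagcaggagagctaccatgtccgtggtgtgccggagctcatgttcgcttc
Ugt1a9, chr9:96144536-96144835, plus strand: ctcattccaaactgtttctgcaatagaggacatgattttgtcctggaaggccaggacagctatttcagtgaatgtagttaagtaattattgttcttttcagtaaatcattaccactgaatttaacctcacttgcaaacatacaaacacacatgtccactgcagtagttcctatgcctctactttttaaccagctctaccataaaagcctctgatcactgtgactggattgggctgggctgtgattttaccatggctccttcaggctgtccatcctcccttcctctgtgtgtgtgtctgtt
Ugdh, chr14:43202268-43202567, plus strand: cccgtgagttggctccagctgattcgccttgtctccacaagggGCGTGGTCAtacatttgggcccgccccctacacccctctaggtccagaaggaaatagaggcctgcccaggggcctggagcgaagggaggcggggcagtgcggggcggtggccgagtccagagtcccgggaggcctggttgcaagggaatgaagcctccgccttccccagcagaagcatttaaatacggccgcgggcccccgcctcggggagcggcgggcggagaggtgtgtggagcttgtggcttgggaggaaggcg

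In the Ugt1a6 promoter the aryl hydrocarbon receptor core began at position −133 from the start, on the plus strand, and HNF1 cores at −190 and −29. The Ugt1a2 promoter held HNF1 cores at −121 and −104, and the Ugt1a1 promoter held 1 at −63. Among 33469 promoters of the same length, 7.45% held the HNF1 core, 29.7% the aryl hydrocarbon receptor core and 12.1% the antioxidant response element core. That last core was found in 1 member promoter only, that of Ugdh, on the minus strand at −207, where it overlaps an aryl hydrocarbon receptor core. The Ugp2 promoter held an aryl hydrocarbon receptor core at −112, and the Ugt1a9 promoter held none of the 3 motifs. A match is a description of these letters and not a bound site.

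With chlorothalonil, transcripts of Ugt1a6, Ugt1a2 and Ugt1a1 rose between 2.52-fold and 5.01-fold on all 6 of their probes, and Ugp2 rose by about 1.5-fold to 1.6-fold on 2 of its 3 probes. Ugt1a9 and Ugdh did not pass the test. Of the 11 probes, 8 were higher and 0 lower in limma at an adjusted p of 0.05, where 2.67% of all tested probes were called, 1.24% higher and 1.43% lower. The 11 probes are repeated readings of 6 genes. With 1 feature per gene on its brightest probe, 4 of the 6 genes were higher, against 378 of all 29115 features. Because UGT1A genes share common exons and the exon each probe reads was not analysed, these genes may not be separate readings either. A rise of at least 2-fold past the threshold was seen for 6 of the 11 probes, against 0.414% of all. The chlorothalonil arrays all lay above the corn oil arrays for 10 of the 11, against 14.0% of all probes, while the groups were apart in either direction for 27.1%. All 11 fold changes were above 0, as were 52.2% of all. The median log2 fold change was 1.33 over the 11 probes and 0.01 over all 39862, of which 5% lay above 0.47. Values per array below are multiples of the 75th percentile of that array's signals, and fold changes are log2, chlorothalonil minus corn oil. In whole tissue, more cells with a transcript and more transcript per cell cannot be told apart.

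**Figure D1:**
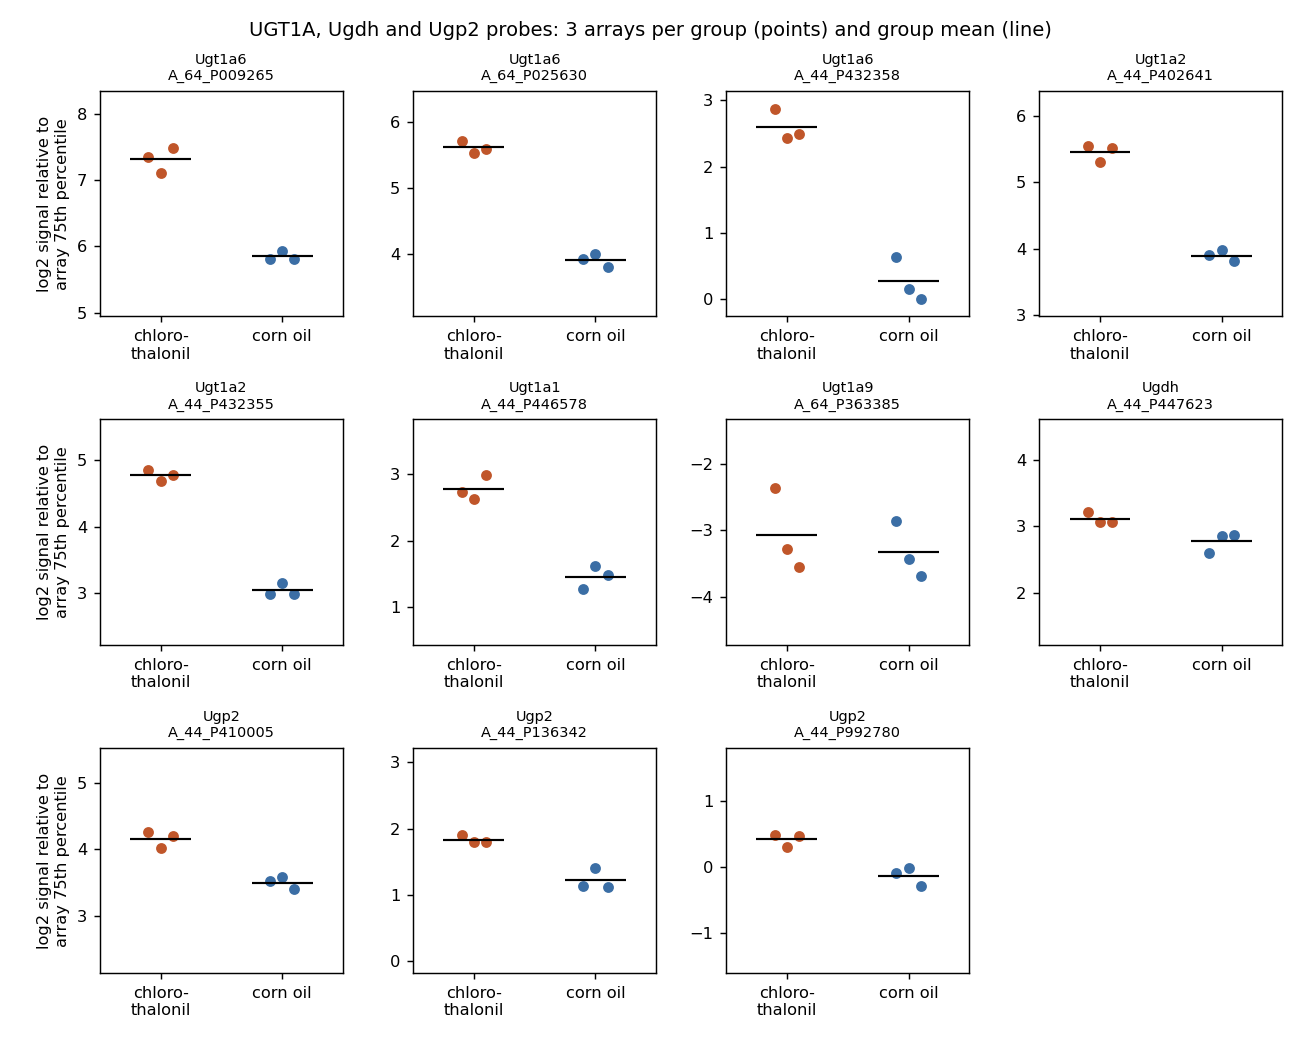
Signal of each of the 11 probes on each array, as log2 relative to the array's 75th percentile, with chlorothalonil left of corn oil, 3 arrays per group (points) and the group mean (line); every panel spans 3.4 log2 units. The groups are apart for every probe but that of Ugt1a9.

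Ugt1a6, which conjugates small planar phenols, had 3 probes. On the brightest, A_64_P009265, the signal was 163, 138 and 178 times the 75th percentile with chlorothalonil, against 55.9, 61.0 and 56.0 times with corn oil. Every treated array was thus far above every corn oil array. The log2 fold change was 1.47 ± 0.11 (SE, n = 3 per group), or 2.76-fold with a 95% interval from 2.29 to 3.33, and the limma adjusted p was 0.00626. Probe A_64_P025630 of the same transcript gave 52.5, 46.3 and 48.1 with chlorothalonil, against 15.2, 15.97 and 14.0 with corn oil. Its log2 fold change was 1.70 ± 0.08 (SE), with a limma adjusted p of 0.0018.

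The other Ugt1a6 probe, A_44_P432358, is assigned to a different RefSeq transcript of the gene and had the largest change of the 11. It gave 7.33, 5.38 and 5.62 times the 75th percentile with chlorothalonil, against 1.56, 1.12 and 1.01 with corn oil. The groups were far apart, although corn oil replicate 1 lay above the other corn oil arrays. The log2 fold change was 2.33 ± 0.20 (SE), or 5.01-fold with a 95% interval from 3.55 to 7.07, and the limma adjusted p was 0.00975. This rise exceeded that of A_64_P009265 by 0.86 ± 0.25 (SE) on the log2 scale and that of A_64_P025630 by 0.63 ± 0.20, without overlap of the groups for either difference. The exact permutation p was 0.1 for both, which is the smallest that 3 against 3 arrays allow. Without chlorothalonil replicate 3, the array with conflicting labels, the fold change of A_44_P432358 was 2.38 and its adjusted p 0.0512. On those 5 arrays 5 of the 11 probes passed, namely the other Ugt1a6 probes and those of Ugt1a2 and Ugt1a1.

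Ugt1a2 had 2 probes, and both rose. A_44_P402641 gave 46.8, 39.7 and 45.6 times the 75th percentile with chlorothalonil, against 15.0, 15.7 and 14.0 with corn oil. A_44_P432355 gave 28.9, 25.8 and 27.6 with chlorothalonil, against 7.94, 8.84 and 7.91 with corn oil. No array of one group came near those of the other on either probe. The log2 fold changes were 1.56 ± 0.09 (SE) and 1.74 ± 0.08, with limma adjusted p of 0.00354 and 0.0017. Of all 39862 probes, A_44_P432355 ranked 15th by p.

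Ugt1a1, the main bilirubin-conjugating enzyme, had 1 probe. A_44_P446578 gave 6.66, 6.18 and 7.92 times the 75th percentile with chlorothalonil, against 2.41, 3.05 and 2.78 with corn oil. The lowest treated array was again above the highest corn oil array, and chlorothalonil replicate 3 was the highest of all. The log2 fold change was 1.33 ± 0.13 (SE), or 2.52-fold with a 95% interval from 2.01 to 3.15, and the limma adjusted p was 0.0128. It did not pass without chlorothalonil replicate 1 (1.35, adjusted p of 0.0618) or without corn oil replicate 3 (1.34, 0.0562).

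Ugt1a9, whose human counterpart is a main renal enzyme for phenols, was dim. Its probe A_64_P363385 gave 0.194, 0.103 and 0.0855 times the 75th percentile with chlorothalonil, against 0.138, 0.0932 and 0.0776 with corn oil. The groups overlapped, and replicate 1 was the brightest array in both. The log2 fold change was 0.26 ± 0.36 (SE), with a limma adjusted p of 0.75 and a 95% interval from −0.63 to 1.15. That interval reaches from a fall to a rise of 2.21-fold, so these arrays do not settle whether Ugt1a9 responded. Leaving out chlorothalonil replicate 1 turned it to −0.093.

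**Figure D2:**
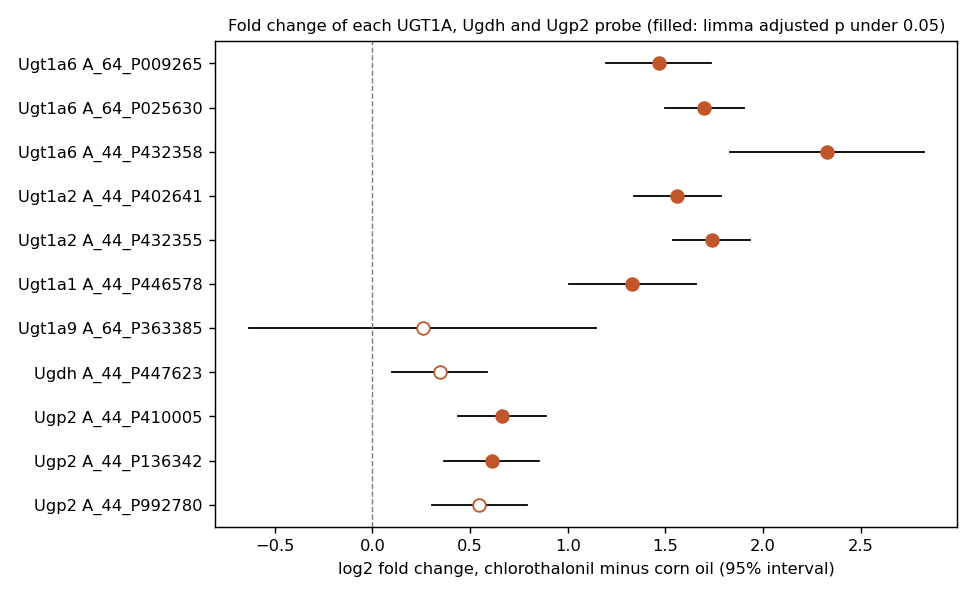
Log2 fold change, chlorothalonil minus corn oil, of the 11 probes (points) with 95% intervals (lines) from the limma fit; filled points have an adjusted p under 0.05. The 6 probes of Ugt1a6, Ugt1a2 and Ugt1a1 lie between 1.33 and 2.33, those of Ugp2 and Ugdh between 0.34 and 0.66, and the interval of Ugt1a9 is the widest.

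Of the genes that supply UDP-glucuronate, Ugp2 rose and Ugdh did not pass. Ugp2, which makes UDP-glucose, had 3 probes. The brightest, A_44_P410005, gave 19.2, 16.2 and 18.3 times the 75th percentile with chlorothalonil, against 11.5, 11.9 and 10.5 with corn oil. The groups did not overlap on any of the 3 probes. Log2 fold changes were 0.66 ± 0.09 (SE) for A_44_P410005, 0.61 ± 0.10 for A_44_P136342 and 0.55 ± 0.10 for A_44_P992780, with limma adjusted p of 0.0293, 0.0428 and 0.0535. These calls were close to the threshold. With any single array left out, the brightest probe kept a fold change between 0.61 and 0.73 but did not pass, with adjusted p between 0.0668 and 0.105.

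Ugdh, which oxidises UDP-glucose to UDP-glucuronate, had 1 probe, A_44_P447623. It gave 9.34, 8.35 and 8.37 times the 75th percentile with chlorothalonil, against 6.07, 7.20 and 7.30 with corn oil. The treated arrays all lay above the corn oil arrays, by a margin of 0.19 on the log2 scale between the nearest arrays. The log2 fold change was 0.34 ± 0.10 (SE), or 1.27-fold with a 95% interval from 1.07 to 1.50. It did not pass over all probes, with a limma adjusted p of 0.149 and an unadjusted p of 0.0137, a level that 19.2% of all probes reached.

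**Figure D3:**
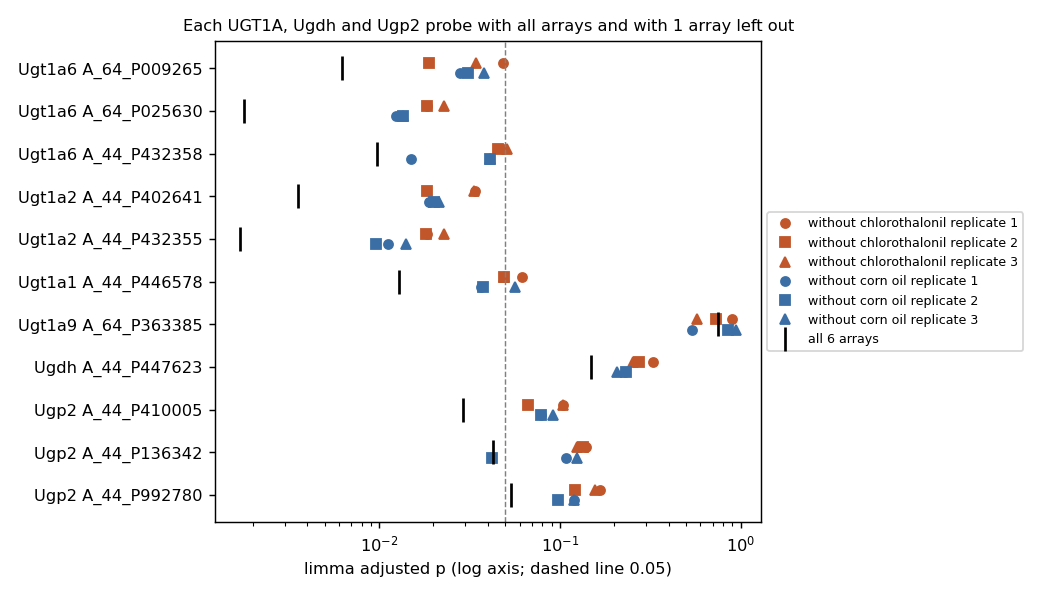
Limma adjusted p (log axis) of each of the 11 probes with all 6 arrays (black bars) and with each array left out in turn (orange for a chlorothalonil array, blue for a corn oil array; circle, square and triangle for replicates 1, 2 and 3). The 2 Ugt1a2 probes and 2 of the 3 Ugt1a6 probes stay left of the dashed line at 0.05 in every fit, while the brightest Ugp2 probe passes only with all 6 arrays.

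The responses of the 6 genes were set against each other on the brightest probe of each, as the difference of the log2 fold changes, for 15 pairs. On these probes the rises of Ugt1a6, Ugt1a2 and Ugt1a1 could not be told apart. The dimmer Ugt1a6 probe A_44_P432358, which rose by 2.33, was not part of this comparison. Ugt1a6 minus Ugt1a2 was −0.09, with a 95% interval from −0.27 to 0.08, and Ugt1a6 minus Ugt1a1 was 0.14, with an interval from −0.09 to 0.37. Ugt1a2 minus Ugt1a1 was 0.23, from −0.13 to 0.59. Each of the 3 exceeded both supply enzymes without overlap of the groups. Ugt1a6 rose by 1.12 ± 0.13 (SE) more than Ugdh and by 0.80 ± 0.07 more than Ugp2, and Ugt1a2 by 0.90 ± 0.01 more than Ugp2. Ugdh minus Ugp2 was −0.32, with an interval from −0.66 to 0.02. In all, 9 of the 15 pairs did not overlap and had the smallest exact permutation p possible, 0.1 two-sided. That is 0.167 after Benjamini-Hochberg adjustment over the pairs. The pairs reuse the same 6 probes, so they are not independent, and this count was not set against pairs of other probes.

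Array by array, likeness between UGT1A probes did not follow gene names. After each probe was set to 0 at its own corn oil mean, A_64_P025630 of Ugt1a6 and A_44_P432355 of Ugt1a2 differed by a root mean square of 0.0458 log2 units over the 6 arrays. A_64_P025630 differed from A_64_P009265, a probe of its own transcript, by 0.194, and from A_44_P432358 of the same gene by 0.485. A_44_P432358 differed from the Ugt1a2 and Ugt1a1 probes by 0.478 to 0.778, and Ugt1a1 from A_44_P432355 by 0.310. The Ugt1a9 probe was the farthest, at 0.925 to 1.48 from the other UGT1A probes. The 3 Ugp2 probes differed among themselves by 0.0895 to 0.0913. Among other named genes, those with the profile nearest to A_64_P009265 were Gstm2, a glutathione transferase, at 0.128, Dap at 0.169 and Tmem205 at 0.194. Nearest to Ugp2 were Nrap at 0.0409, Gnat1 at 0.0677 and Wfdc3 at 0.0727, and nearest to Ugdh were the tropomodulin Tmod3 at 0.0418, Ell3 at 0.0472 and Heatr6 at 0.0487. These were taken from 19484 probes as a description over 6 arrays, with no test.

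Markers of kidney cell types were checked beside these values. Of 38 markers outside the hepatocyte list, 31 were tested and 1 passed, the proximal tubule anion transporter Slc17a1, at a log2 fold change of 0.96. The summed proximal tubule signal, on the log2 scale, lay between 10.3 and 10.4 with chlorothalonil and between 10.1 and 10.3 with corn oil. All 8 proximal tubule and 4 podocyte markers were bright enough to be tested, and the adrenal markers Star, Cyp11b1 and Cyp11b2 well above background on 0 arrays. Red cell transcripts did not overlap between the groups, with a summed log2 signal from 9.12 to 9.23 with chlorothalonil and from 8.89 to 8.96 with corn oil, although none of the 3 passed. Their part in the changes of the members was not tested.

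Transcripts of Alb and Ttr, both made in hepatocytes, set 1 array apart. The summed log2 signal of Alb, Apoa1, Ttr and Cyp2c11 was 1.71, 3.05 and 1.18 with chlorothalonil, against −1.22, 2.71 and 2.29 with corn oil, so that corn oil replicate 1 was far below the rest. Alb was at −4.91 and Ttr at −5.64 on that array, whereas Cyp2c11 was at −1.60 there, its highest value on the 6 arrays. The liver also expresses UGT1A enzymes. On that array A_64_P009265 was at 55.9 times the 75th percentile, next to 56.0 on corn oil replicate 3. Other member probes differed there. Ugt1a1 was lowest of the corn oil arrays, at 2.41 against 3.05 and 2.78, and so was Ugdh, at 6.07 against 7.20 and 7.30. A_44_P432358 was highest, at 1.56 against 1.12 and 1.01, and so was Ugt1a9. The remaining probes lay within the range of the other corn oil arrays. A part of liver transcripts in the member values was not tested. Without corn oil replicate 1, 6 of the 11 probes passed, those of Ugt1a6, Ugt1a2 and Ugt1a1, with log2 fold changes from 1.24 to 2.51.

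**Figure D4:**
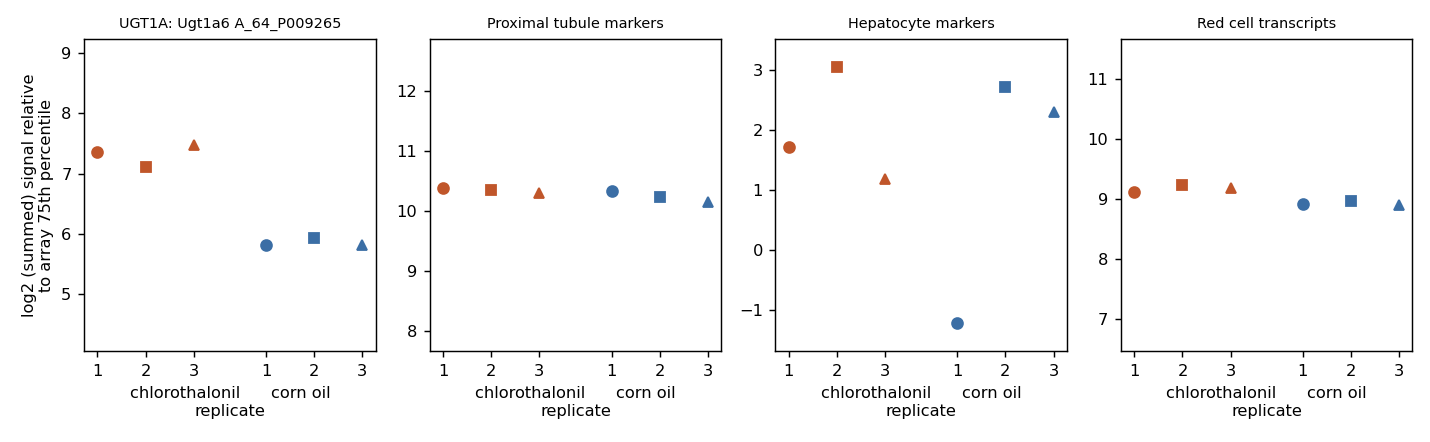
Log2 signal relative to the array's 75th percentile on each array, chlorothalonil left of corn oil, for the brightest Ugt1a6 probe and for the summed proximal tubule, hepatocyte and red cell markers; every panel spans 5.2 log2 units. Corn oil replicate 1 is low for the summed hepatocyte markers, at −1.22, although 1 of the 4, Cyp2c11, is highest there. That array lies among the corn oil arrays for the Ugt1a6 probe shown, but not for every member probe.

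The rest of the route from sugar to UDP-glucose moved little. Besides Ugp2 and Ugdh, 14 enzymes of glucose, galactose and glycogen metabolism were tested, of which 1 rose, 0 fell and 13 did not pass, with a median log2 fold change of −0.01. The gene that rose was Gbe1, the glycogen branching enzyme, at 0.63 ± 0.08 (SE) with a limma adjusted p of 0.0267, and its second probe gave 0.36 and did not pass. Of these 14, 0 passed with no filter on dim probes and when any one array other than corn oil replicate 1 was left out. Among genes that carry UDP-glucuronate elsewhere or use it for proteoglycans, hyaluronan and UDP-xylose, 0 of 8 passed in limma, and for 1 of them the unadjusted p was under 0.05. That was Slc35d1, which transports UDP-glucuronate into the endoplasmic reticulum, at 0.30 ± 0.07 with an adjusted p of 0.108, while its probes ranged from −0.02 to 0.30. Of 9 enzymes of glucuronide hydrolysis, glucuronate breakdown and ascorbate synthesis, 1 rose and 8 did not pass. Cryl1, a gulonate dehydrogenase, rose by 0.90 ± 0.16 on its brightest probe and by 1.08 on the other, and both passed. The brightest had a limma adjusted p of 0.0492, and its call was lost with quantile normalization and when any one array was left out. The other Cryl1 probe was not followed in those fits.

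Among other genes of conjugation and export, 3 of 5 tested UDP-glycosyltransferases and 4 of 5 exporters rose. Ugt2a1, Ugt2a3, Ugt2b1 and Ugt2b10 were too dim to test, and further UDP-glycosyltransferases of the list have no probe. The UDP-glycosyltransferases that rose were Ugt2b15, Ugt2b35 and Ugt2b37. Of those that did not pass, Ugt2b7 had the highest value of the 5, at 5.40 ± 1.06 (SE) with the groups apart and a limma adjusted p of 0.0668, and Ugt8 was at 0.15. With normexp, 4 of these genes passed. Ugt2b35 rose by 3.11 ± 0.33 (SE) with a limma adjusted p of 0.0146. Members of the UGT2B family are near-identical, so the share of each signal that belongs to the gene named is uncertain. These 3 calls were lost when any one chlorothalonil array or corn oil replicate 2 was left out. Among exporters of glucuronides and other conjugates, Abcc2, an apical exporter of the proximal tubule, rose by 2.31 ± 0.25. Abcc3 rose by 2.23 ± 0.10, Abcc4 by 2.13 ± 0.10 and Abcc1 by 0.62 ± 0.06. For Abcg2 the value was −0.26 ± 0.07 and missed the threshold (adjusted p of 0.12). Between 2 and 4 exporters passed when 1 array was left out.

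Of 11 transcription factors and partners known to act on UGT1A genes, 1 rose and 10 did not pass, with a median log2 fold change of −0.05. Keap1, the adaptor that targets NRF2 for degradation, rose by 0.41 ± 0.06 (SE), with a limma adjusted p of 0.037 that was lost with any single array left out. For 4 of the 11 the unadjusted limma p was under 0.05, a level that 19.2% of all probes reached. Besides Keap1 these were Nr1i2 at 0.25, Nr1i3 at 0.40 and Nfe2l2, the gene of NRF2, at −0.23. The other Nfe2l2 probe gave −0.41. Of 10 tested NRF2 targets, 6 rose, with a median of 1.26 over the 10. They were Gstm1, Nqo1, Gstp1, Srxn1, Gsta3 and Txnrd1, from 6.43 for Gstm1 to 0.89 for Txnrd1. Those that did not pass were Gclc at 0.76, Me1 at 0.63, Hmox1 at 0.18 and Gclm at −0.63. Between 2 and 6 of the 10 passed when 1 array was left out. Of the targets of the aryl hydrocarbon receptor, 3 were tested and 1 passed, Nqo1, which is on both lists and rose by 4.33 ± 0.43. The Nqo1 call was lost without chlorothalonil replicate 1 or 2 or corn oil replicate 3. Aldh3a1 was at 0.12 with the groups apart, and at 0.34 on its other probe, while Ahrr was at −0.13. The further targets Cyp1a1, Cyp1a2 and Cyp1b1 have 5 probes, and none was well above background on any array of either group. A part of either factor in the member values was not tested. These lists were compiled with earlier results of these data known, and their counts are read only against the 1.24% of probes called higher.

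**Figure D5:**
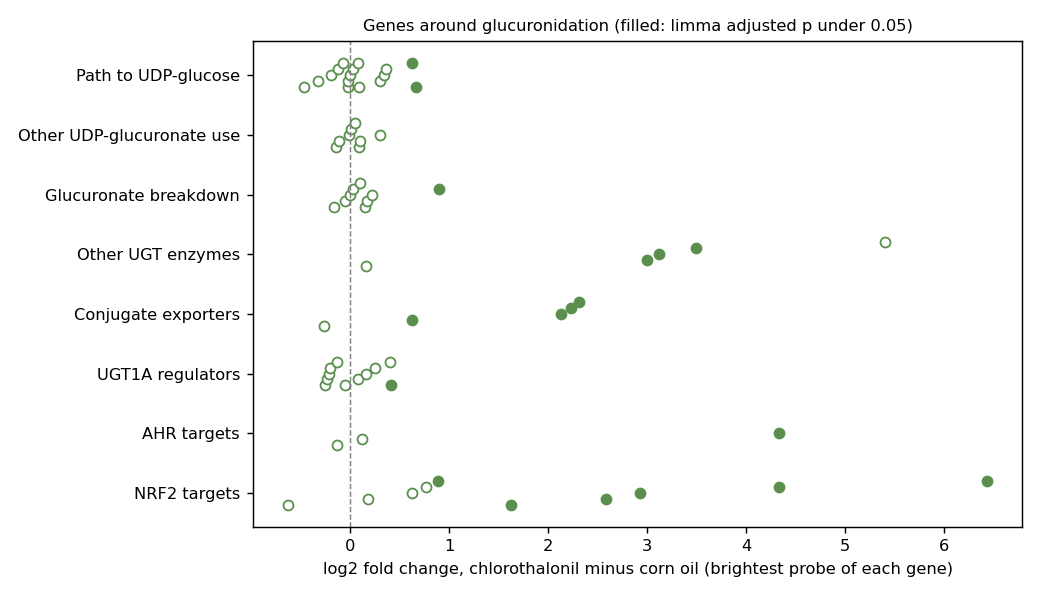
Log2 fold change, chlorothalonil minus corn oil, of each tested gene of the lists around glucuronidation, on the gene's brightest probe (points, spread vertically for legibility); filled points have a limma adjusted p under 0.05. Other UGT enzymes, conjugate exporters and NRF2 targets hold most filled points, while the path to UDP-glucose lies around 0 apart from Gbe1 and Ugp2.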

How the data were processed

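RNA of rat renal cortex from 3 chlorothalonil and 3 corn oil animals was read on 1-colour Agilent arrays; the series design calls them biological replicates. The deposited scanner intensity, the processed signal, was background-subtracted and detrended within each array by Agilent Feature Extraction, per the file headers, version 10.7 per the submitters' processing notes, and was not scaled between arrays. A second table, deposited by the authors, gives a ratio, the processed signal over 1 constant per array close to its 75th percentile, found from the values, on a linear scale and not centred; its column medians were 0.105, 0.105 and 0.106 for chlorothalonil replicates 1 to 3 and 0.107, 0.109 and 0.112 for corn oil replicates 1 to 3.

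Values used here were the log2 processed signal less the log2 75th percentile of the array, taken over 61537 probes, with 0 to 9 outlier spots per array left out and no probe saturated. Between 40960 and 41711 probes were well above background on chlorothalonil arrays, and between 38234 and 41108 on corn oil arrays; the number of arrays limits the precision. Tests covered the probes that Feature Extraction flags as well above background on each of the 3 arrays of either group, with 2 or more measurements per group, 39862 in all, with limma 3.58.1 in R 4.3.3, no covariate and Benjamini-Hochberg adjustment over all of them. The fit was per probe, and was tested on simulated data. Names came through RefSeq accessions of assembly GRCr8, which matched 28206 probes to 1 gene; the array headers name an older build, so gene coordinates from the array are not given. For lists, a gene's brightest tested probe was used. Pair differences had an exact permutation test.

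The genes followed and the lists were chosen with earlier results of these data known; 1 gene of the NRF2 target list is not reported here and is left out of every list count. Genes named are the 6 members and every list gene past the threshold, or else that with the smallest p. The 3 nearest profiles each for UGT1A, Ugdh and Ugp2 are also named. Other genes named were chosen after their values were seen. These are Abcg2, Ugt2b7, Ugt8, UDP-glycosyltransferases too dim to test, NRF2 targets that did not pass and receptor targets other than Nqo1. Nr1i2, Nr1i3, Nfe2l2 and the markers are also among them. Alternatives were other normalizations, filters and gene summaries, the deposited table, normexp, a trended robust prior, the replicate number as a block and each array left out. A slide block could not be fitted, since each slide holds 1 group.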

Additional observations from a re-analysis of the deposited data

How the results depend on the processing

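Of the 11 probes of the UGT1A enzymes, Ugp2 and Ugdh, 8 passed over all 6 arrays, and 5 to 7 passed with 1 array left out: 5 without chlorothalonil replicates 1 or 3 or corn oil replicate 3. The 2 Ugt1a2 probes and 2 of the 3 Ugt1a6 probes passed in all 6 of these fits. By gene on its brightest probe, 4 passed, and 2 to 3 with 1 array left out. Directions of all 11 were kept under every alternative, except Ugt1a9, which ranged from −0.093 to 0.50 with 1 array left out and was below 0 only without chlorothalonil replicate 1. Between 6 and 9 probes passed under the other normalizations, filters and priors, again excepting the block below. Over all probes 1064 passed; the range was 145 to 421 with 1 array left out, and it was 1674 with normexp and 186 with no filter on dim probes. Scaling to the array median turned the balance, with 545 higher and 384 lower against 493 higher and 571 lower. Of the list genes other than members, 16 passed, 5 with no filter and 5 to 14 with 1 array left out. The pair comparison gave 9 pairs without overlap, and 9 to 11 with 1 array left out. The median log2 fold change of the 11 was 1.33, and 1.23 to 1.41 with 1 array left out.

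With the replicate number as a block, 17 of all probes, 1 of the 11 (A_44_P432358 of Ugt1a6, adjusted p of 0.047), 0 of the 6 genes on their brightest probe and 0 list genes passed; the block leaves fewer residual degrees of freedom. Arrays with the same number deviated together with correlations of 0.03 to 0.10 across probes, and those with different numbers with −0.07 to 0.04. Each chlorothalonil array correlated best with its own number. Corn oil replicate 2 did not, at 0.027 with its own number and 0.038 with chlorothalonil replicate 3. The numbers were not taken as pairs, although these values do not settle whether the arrays are paired. Gene-level alternatives give no count of probes. The normexp correction used the median spot signal; a mean signal was not used here.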
